A study of Mus musculus with 13 samples.

Results

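The signalling lymphocytic activation molecule (SLAM) family was followed here across sorted splenic CD4 T cells of the mouse. It was represented by 8 genes, chosen by name from the 18649 genes of the deposited table. They are 6 receptor genes (Slamf1, Slamf6, Cd84, Ly9, Cd48 and Cd244), Sh2d1a, which encodes the adaptor SAP, and Fyn, which encodes the kinase that SAP recruits. All 8 were found in the table. The RNA libraries came from 3 sorted populations. The PD1hi cells were CD4+ and PD-1hi and lacked the GFP reporter of Foxp3 (3 libraries). Regulatory T cells, here Treg, were CD4+, PD-1- and GFP(Foxp3)+ (5 libraries). Conventional cells, here Tconv, were CD4+, PD-1- and GFP(Foxp3)- (5 libraries). Experiments 3, 5 and 6 are named in the titles, all with the 3 populations, and in 4 cases a further library of a population and experiment is titled as its replicate. No treatment, age or strain is given in the labels, and the reporter allele is not described further.

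SLAM receptors are surface proteins of haematopoietic cells. Most of them bind a copy of themselves on a neighbouring cell, while CD48 is the ligand of CD244 and, in the mouse, of CD2. When phosphorylated, tyrosine switch motifs in their tails bind SAP, which brings in Fyn, and in the absence of SAP they can bind phosphatases such as SHP-1, SHP-2 and SHIP-1. CD48 is held in the membrane by a lipid anchor and has no signalling tail. In follicular helper T cells, which are PD-1 high, SAP is known to be needed for lasting contact with B cells and for germinal centre responses.

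The receptor genes lie side by side on chromosome 1, in the order Cd244, Ly9, Slamf7, Cd48, Slamf1, Cd84 and Slamf6, while Sh2d1a is on chromosome X and Fyn on chromosome 10. The promoters of the 3 receptors whose RNA differed between populations are shown because these genes share a cluster but not a pattern. Each is the 250 bases before the start of the gene in RefSeq, build GRCm38.p6, which had an entry for 6 of the 8 genes. Capitals mark matches, on either strand, to 4 short motifs.
Slamf6, chr1:171917212-171917461 (+): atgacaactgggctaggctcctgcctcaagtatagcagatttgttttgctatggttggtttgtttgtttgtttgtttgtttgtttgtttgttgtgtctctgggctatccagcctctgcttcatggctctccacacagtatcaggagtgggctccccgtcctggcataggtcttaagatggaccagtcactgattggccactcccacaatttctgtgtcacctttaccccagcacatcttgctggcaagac
Slamf1, chr1:171766882-171767131 (+): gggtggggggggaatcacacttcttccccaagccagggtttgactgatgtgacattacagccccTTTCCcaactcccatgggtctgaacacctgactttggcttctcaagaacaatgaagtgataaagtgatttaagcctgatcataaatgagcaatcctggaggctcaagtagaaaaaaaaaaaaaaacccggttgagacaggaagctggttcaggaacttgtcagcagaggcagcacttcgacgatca
Cd48, chr1:171681742-171681991 (+): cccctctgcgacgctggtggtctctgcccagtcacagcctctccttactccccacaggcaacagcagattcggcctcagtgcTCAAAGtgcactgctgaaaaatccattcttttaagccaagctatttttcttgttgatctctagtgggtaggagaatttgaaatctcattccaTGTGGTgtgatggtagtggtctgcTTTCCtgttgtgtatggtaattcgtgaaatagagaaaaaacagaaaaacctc
The motifs searched were forkhead TGTTTNC, TCF/LEF CTTTGA, NFAT GGAAA and RUNX TGTGGT, and a forkhead match can overlap an NFAT match. They occur in 17.9%, 14.0%, 55.6% and 14.2% of 27025 promoter windows of the same length, in that order. The Slamf6 window held no match. The Slamf1 window held 1 NFAT match. The Cd48 window held 1 match each for TCF/LEF, NFAT and RUNX. Windows of receptors called in no comparison held matches too. That of Cd84 had 1 each for forkhead, NFAT and RUNX, and that of Cd244 had 1 for NFAT. The Fyn window had 1 for TCF/LEF. These matches describe the letters of the windows and show no binding.

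Values below are scaled counts, which are reads in a gene after the authors' size factors made the libraries comparable. Depth ran from 15971126 to 24216463 reads in genes per library. Where a population had more than 1 library in an experiment, these were averaged, so each population gave 3 values. Differences were tested with limma over the 14177 genes whose mean was 10 or more, and a gene was called at a Benjamini-Hochberg adjusted p under 0.05. The labels do not say whether libraries came from separate mice, so p-values reflect only how much these samples varied, and part of that may be technical. In RNA from sorted pools, fewer cells of a type and less RNA per cell cannot be told apart. The sorted markers followed the labels, with a mean Foxp3 level of 106 ± 33.4 for PD1hi, 15890 ± 513.4 for Treg and 291.5 ± 35.8 for Tconv (SD, n = 3). Pdcd1, which encodes PD-1, averaged 37370 ± 3290, 1955 ± 38.6 and 1132 ± 135.8 in the same order. Each of 9 CD4 T cell markers had reads in every population. Their summed level was 184100 to 195900 in PD1hi, 113400 to 127300 in Treg and 144700 to 152900 in Tconv. Of these 9 markers, 6 were called higher in PD1hi than in Treg, where 8.16% of all genes tested were. In PD1hi against Tconv 3 were called higher, where 14.2% of all genes were. This is the direction of Slamf6, Sh2d1a and Fyn below, and the part of these markers in those results was not tested.

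A pair of libraries stood apart from the others of their population on the third principal component, namely PD1hi of experiment 6 and the Treg library titled replicate in experiment 3. In the PD1hi library 1793 genes lay at least 1.5 times above both other PD1hi libraries, and in the Treg library 1127 genes lay that far above every other Treg library. The lists share 455 genes, which is 25.4% of the PD1hi list and 40.4% of the Treg list. Fyn is in both lists, and the other 7 genes are in neither. The lists were drawn from the 14177 genes tested below and hold only genes that were higher. Slamf1 was lower in PD1hi of experiment 6, at 963.2, than in the other PD1hi libraries (1316 and 1286). So was Ly9, at 3026 (4114 and 4083). Results that rest on the pair that stood apart are given with and without it.

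Marker genes of other cells were not level across the populations either. The summed level of 9 B cell markers was 1682 to 2324 in PD1hi, 795.2 to 1283 in Treg and 208.4 to 411.3 in Tconv. Most of it came from Cd22 in PD1hi and from Cd79b in Treg. The sum of 8 CD8 T and NK cell markers was 2561 to 3953 in PD1hi, 975.2 to 1378 in Treg and 5293 to 7666 in Tconv. Its largest part was Nkg7, with means of 2567, 662 and 4111 in that order, while Cd8a averaged 6.78, 5.55 and 8.43. For 4 plasma cell markers the sum was 3904 to 7326, 6510 to 9580 and 2225 to 3246, in the same order of populations. Igj was its largest part, with means of 3866, 4316 and 1586. Prdm1 averaged 557.3, 2494 and 582.2, and Sdc1 49.1, 32.4 and 17.8. For 11 myeloid, dendritic and platelet markers the sum was 451.6 to 642.6, 324.4 to 990.3 and 380 to 714, again in that order. No marker was at 0 throughout a population. Many SLAM receptors are also made by these cell types, and the part of such cells in the results below was not tested.

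Among the 8 genes, Slamf6, Sh2d1a and Fyn were higher in PD1hi cells than in either other population, Slamf1 was higher in Treg, and Cd48 was lower in PD1hi, although its call against Tconv was lost under some alternatives. Cd84, Ly9 and Cd244 passed the test in no comparison. In PD1hi against Tconv, 3 genes were higher and 1 was lower, where 26.1% of all genes tested were called, 14.2% higher and 11.9% lower. In PD1hi against Treg, 3 were higher and 2 were lower, where 16.5% of all genes were called, 8.16% higher and 8.39% lower. In Treg against Tconv, 2 were higher and 0 lower, where 14.4% of all genes were called, 8.73% higher and 5.66% lower. The PD1hi values enter the first 2 of these comparisons, and each other population also enters 2, so the comparisons share samples. The 8 genes were chosen with earlier results of these data known, so their counts beside these shares are only a description.

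**Figure D1:**
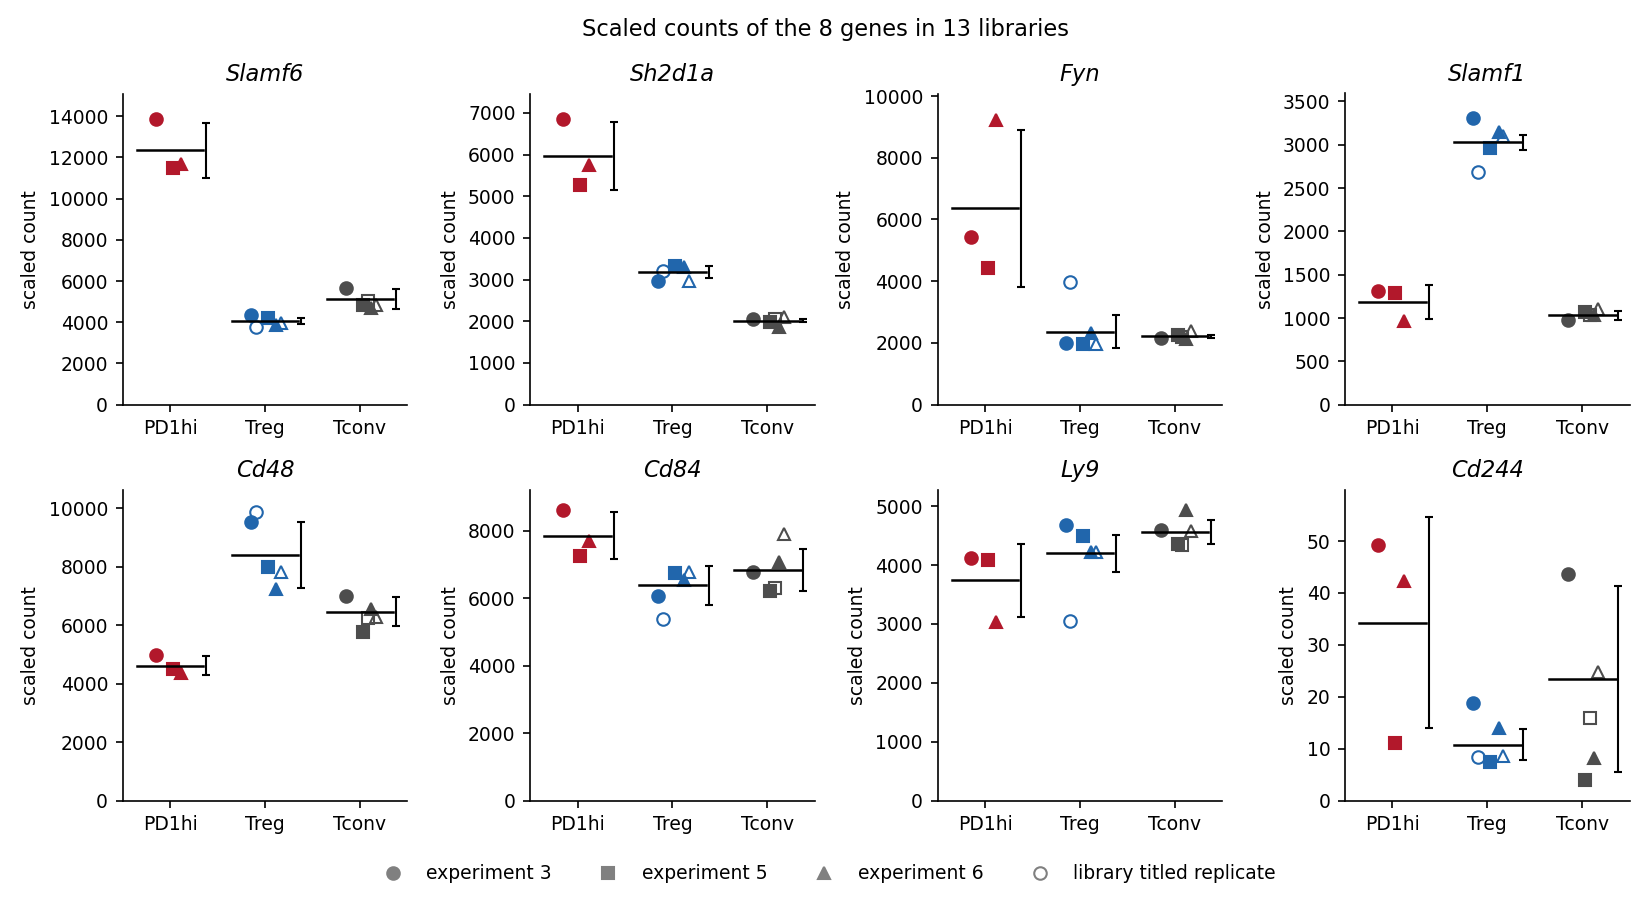
Scaled counts of the 8 genes by library in PD1hi, Treg and Tconv cells (linear axes from 0, different scale in each panel; symbols give the experiment, open symbols the libraries titled replicate). Black lines and error bars are the mean ± SD of the 3 values per population, and Slamf6 and Sh2d1a libraries of PD1hi lie above every library of the other populations.

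Slamf6 encodes Ly108, a receptor that binds itself and signals through SAP. Its scaled counts in PD1hi were 13880, 11470 and 11670 in experiments 3, 5 and 6. In Treg they were 4335 and 3775 in experiment 3, 4184 in experiment 5, and 3854 and 3957 in experiment 6. In Tconv they were 5663 in experiment 3, 4838 and 5021 in experiment 5, and 4671 and 4844 in experiment 6. The 3 populations did not overlap, with PD1hi highest and Treg lowest. The mean was 12340 ± 1336 in PD1hi, 4048 ± 139.4 in Treg and 5117 ± 480.8 in Tconv (SD, n = 3 here and below). The log2 fold change was 1.27 ± 0.13 (SE) in PD1hi against Tconv, a fold of 2.41 (limma adjusted p = 1.6e-05), and 1.60 ± 0.13 in PD1hi against Treg, a fold of 3.04 (limma adjusted p = 3.64e-06). Within experiments the first of these differences was 1.29, 1.22 and 1.30 on the log2 scale. Treg against Tconv gave -0.33 ± 0.13, with a 95% interval of -0.61 to -0.06, and did not pass over all genes (limma adjusted p = 0.11).

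Sh2d1a encodes SAP, the small adaptor that links these receptors to Fyn. PD1hi libraries had Sh2d1a scaled counts of 6858, 5280 and 5739 in experiments 3, 5 and 6. Treg libraries had 2959 and 3209 in experiment 3, 3333 in experiment 5, and 3301 and 2955 in experiment 6. Tconv libraries had 2050 in experiment 3, 1992 and 2050 in experiment 5, and 1864 and 2104 in experiment 6. The populations formed 3 separate levels, with PD1hi highest and Tconv lowest. The mean was 5959 ± 811.3 in PD1hi, 3182 ± 132.7 in Treg and 2018 ± 33.4 in Tconv. The gene was 2.93-fold higher in PD1hi than in Tconv (log2 fold change 1.55 ± 0.13, limma adjusted p = 4.1e-06) and 1.86-fold higher in PD1hi than in Treg (0.90 ± 0.13, limma adjusted p = 0.000352). It was also 1.58-fold higher in Treg than in Tconv (0.66 ± 0.13, limma adjusted p = 0.00392). In this fit Sh2d1a was the only one of the 8 genes called in all 3 comparisons. With experiment as a replicate block Cd48 was as well (limma adjusted p = 0.0412 at its weakest), and with all 13 libraries and an estimated correlation both Cd48 and Slamf6 were (0.0222 and 0.0459 at their weakest). Its exons overlap those of Tenm1, listed in the table as Odz1, on the other strand over 1465 bases in GENCODE vM21. Whether the counting used strand is not given in the sources used here. Odz1 itself averaged 34.8 ± 23.2 in PD1hi, 31.4 ± 23.7 in Treg and 11.8 ± 6.79 in Tconv, far below the level of Sh2d1a in each population.

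Fyn encodes a Src family tyrosine kinase that also acts at the T cell receptor. Its scaled counts in PD1hi were 5423, 4417 and 9231 in experiments 3, 5 and 6. In Treg they were 2007 and 3960 in experiment 3, 1976 in experiment 5, and 2318 and 1954 in experiment 6. In Tconv they were 2173 in experiment 3, 2244 and 2190 in experiment 5, and 2138 and 2391 in experiment 6. PD1hi did not overlap either other population, and the highest value of PD1hi and of Treg each came from a library that stood apart. The mean was 6357 ± 2539 in PD1hi, 2365 ± 541.4 in Treg and 2218 ± 45.9 in Tconv. Fyn was 2.73-fold higher in PD1hi than in Tconv (log2 fold change 1.45 ± 0.24, limma adjusted p = 0.000764) and 2.60-fold higher in PD1hi than in Treg (1.38 ± 0.24, limma adjusted p = 0.00158). Without both libraries that stood apart, the log2 fold change was 1.14 in PD1hi against Tconv (limma adjusted p = 2.82e-05). In PD1hi against Treg it was 1.26 (limma adjusted p = 1.84e-05). That fit was chosen after seeing the data and leaves PD1hi with experiments 3 and 5 only. It drops the highest Fyn library of PD1hi and of Treg, so its smaller p-values are no added evidence. Treg against Tconv gave 0.07 ± 0.24 (limma adjusted p = 0.909), with a 95% interval of -0.45 to 0.59, and -0.12 without both libraries (limma adjusted p = 0.498).

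Slamf1 encodes SLAM itself, also named CD150, a receptor that binds itself. PD1hi libraries had Slamf1 scaled counts of 1316, 1286 and 963.2 in experiments 3, 5 and 6. Treg libraries had 3304 and 2683 in experiment 3, 2967 in experiment 5, and 3150 and 3099 in experiment 6. Tconv libraries had 975.1 in experiment 3, 1074 and 1037 in experiment 5, and 1030 and 1105 in experiment 6. Every Treg library lay above every library of the other populations, and PD1hi and Tconv overlapped. The mean was 1188 ± 195.6 in PD1hi, 3028 ± 84.1 in Treg and 1033 ± 50.2 in Tconv. Slamf1 was lower in PD1hi than in Treg (log2 fold change -1.36 ± 0.15, a fold of 0.389, limma adjusted p = 4.14e-05) and 2.93-fold higher in Treg than in Tconv (1.55 ± 0.15, limma adjusted p = 2.09e-05). PD1hi against Tconv gave 0.19 ± 0.15, with a 95% interval of -0.13 to 0.51 (limma adjusted p = 0.382). The difference was 0.43 and 0.29 in experiments 3 and 5 and -0.15 in experiment 6. Without both libraries that stood apart it was 0.33 (limma adjusted p = 0.0493). That fit was chosen after seeing the data and leaves PD1hi with experiments 3 and 5 only.

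Cd48 encodes the lipid-anchored ligand of CD244 and CD2. Its scaled counts in PD1hi were 4983, 4502 and 4363 in experiments 3, 5 and 6. In Treg they were 9516 and 9848 in experiment 3, 7992 in experiment 5, and 7223 and 7800 in experiment 6. In Tconv they were 6979 in experiment 3, 5747 and 6228 in experiment 5, and 6544 and 6270 in experiment 6. No library overlapped another population, and PD1hi was lowest and Treg highest. The mean was 4616 ± 325.4 in PD1hi, 8395 ± 1140 in Treg and 6458 ± 497.6 in Tconv. Cd48 was lower in PD1hi than in Treg (log2 fold change -0.86 ± 0.13, a fold of 0.552, limma adjusted p = 0.000683) and lower in PD1hi than in Tconv (-0.48 ± 0.13, a fold of 0.715, limma adjusted p = 0.0174). The call against Tconv was lost with libraries scaled to equal totals (-0.34, limma adjusted p = 0.0667), a scaling that raised the median of all genes by 0.144. It was also lost without PD1hi of experiment 5 (limma adjusted p = 0.0508), without Tconv of experiment 3 (0.0825) and without Tconv of experiment 6 (0.0568). Treg against Tconv gave 0.37 ± 0.13 and did not pass (limma adjusted p = 0.0906), but passed with experiment as a replicate block (limma adjusted p = 0.0412).

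Cd84 encodes another receptor that binds itself and signals through SAP. PD1hi libraries had Cd84 scaled counts of 8618, 7253 and 7691 in experiments 3, 5 and 6. Treg libraries had 6067 and 5374 in experiment 3, 6754 in experiment 5, and 6546 and 6775 in experiment 6. Tconv libraries had 6782 in experiment 3, 6222 and 6288 in experiment 5, and 7064 and 7912 in experiment 6. PD1hi lay above every Treg library and overlapped Tconv. The log2 fold change was 0.20 ± 0.13 in PD1hi against Tconv (limma adjusted p = 0.295), 0.30 ± 0.13 in PD1hi against Treg (0.15) and -0.10 ± 0.13 in Treg against Tconv (0.71). The 95% intervals were -0.08 to 0.48, 0.02 to 0.58 and -0.38 to 0.18.

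Ly9 encodes CD229, a receptor that binds itself. PD1hi libraries had Ly9 scaled counts of 4114, 4083 and 3026 in experiments 3, 5 and 6. Treg libraries had 4678 and 3054 in experiment 3, 4495 in experiment 5, and 4224 and 4226 in experiment 6. Tconv libraries had 4596 in experiment 3, 4358 and 4335 in experiment 5, and 4935 and 4575 in experiment 6. PD1hi lay below every Tconv library and overlapped Treg, and the lowest PD1hi and the lowest Treg value came from the libraries that stood apart. The log2 fold change was -0.30 ± 0.14 in PD1hi against Tconv (limma adjusted p = 0.149), -0.18 ± 0.14 in PD1hi against Treg (0.473) and -0.12 ± 0.14 in Treg against Tconv (0.676). Without both libraries these values were -0.15, -0.12 and -0.03.

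Cd244 encodes the receptor for CD48 and is best known from NK and CD8 T cells. It was near the lower limit of the table, with 98 reads over the 3 PD1hi libraries, 62 over the 5 Treg libraries and 96 over the 5 Tconv libraries. The scaled counts were 11.1 to 49.2 in PD1hi, 7.52 to 18.7 in Treg and 3.96 to 43.7 in Tconv, and all populations overlapped. No difference was detectable at this depth, with log2 fold changes of 0.54 ± 0.66 in PD1hi against Tconv (limma adjusted p = 0.601), 1.37 ± 0.66 in PD1hi against Treg (0.205) and -0.83 ± 0.66 in Treg against Tconv (0.508). The 95% interval of PD1hi against Tconv ran from -0.90 to 1.98.

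**Figure D2:**
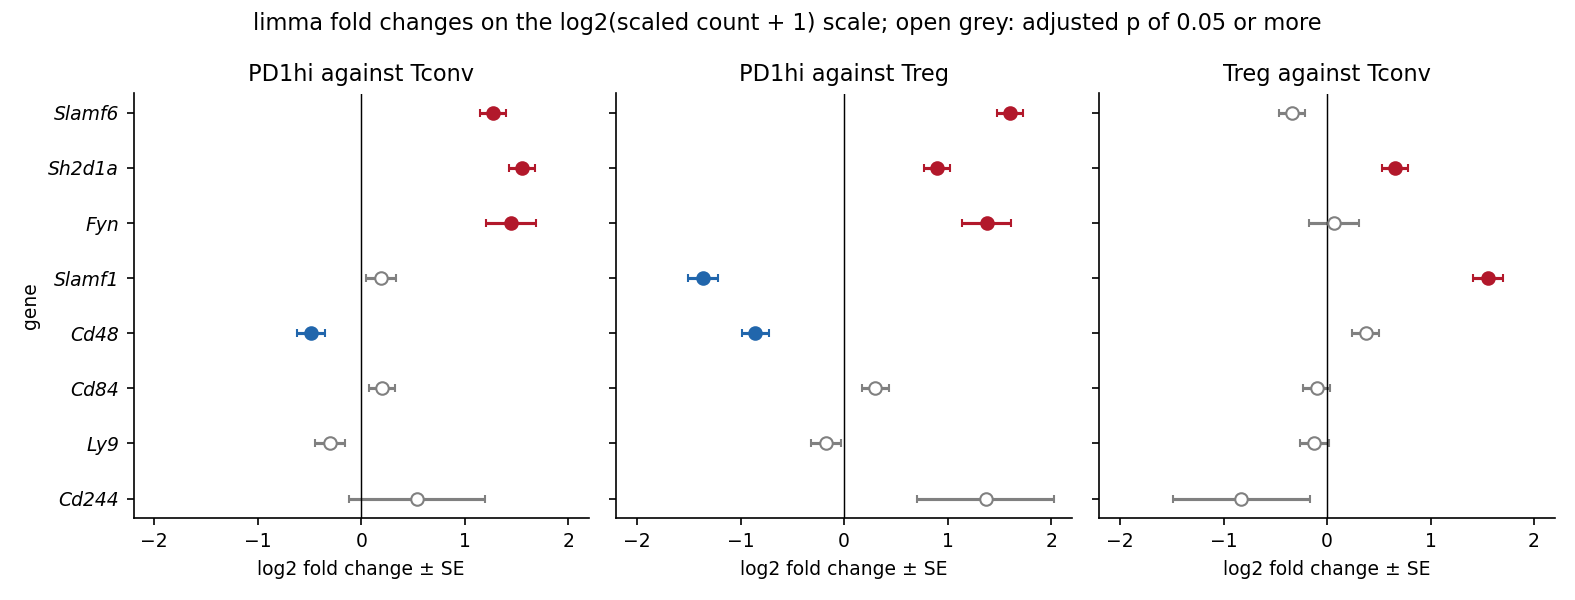
Log2 fold change ± SE of the 8 genes in PD1hi against Tconv, PD1hi against Treg and Treg against Tconv (limma, log2(scaled count + 1) scale, n = 3 values per population). Filled points passed the test, red higher and blue lower. Sh2d1a is filled in all 3 panels, and Cd48 and Slamf1 in PD1hi against Treg lie at -0.86 and -1.36.

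Levels of different receptors were compared per kilobase of exon. Cd48 had the largest share of the summed receptor level per kilobase in each population, with 51.1% ± 0.84 in PD1hi, 68.9% ± 3.93 in Treg and 63.5% ± 1.34 in Tconv (SD, n = 3). Slamf6 held 15.0% ± 0.66 in PD1hi, 3.67% ± 0.26 in Treg and 5.53% ± 0.38 in Tconv. Slamf1 held 2.53% ± 0.30, 4.84% ± 0.47 and 1.97% ± 0.20 (PD1hi, Treg and Tconv), and Cd244 less than any other receptor at 0.0917%, 0.0216% and 0.0547%, in PD1hi, Treg and Tconv. With the shorter exon lengths of the basic annotation set, Slamf6 held 20.1% in PD1hi, 5.08% in Treg and 7.79% in Tconv, and Slamf1 held 5.06%, 9.98% and 4.14% in the same order. In PD1hi the order of Slamf6, Cd84 and Ly9 depended on which lengths were used. Sh2d1a was not ranked because its exon length is 5505 bases in the full and 1523 bases in the basic set.

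**Figure D3:**
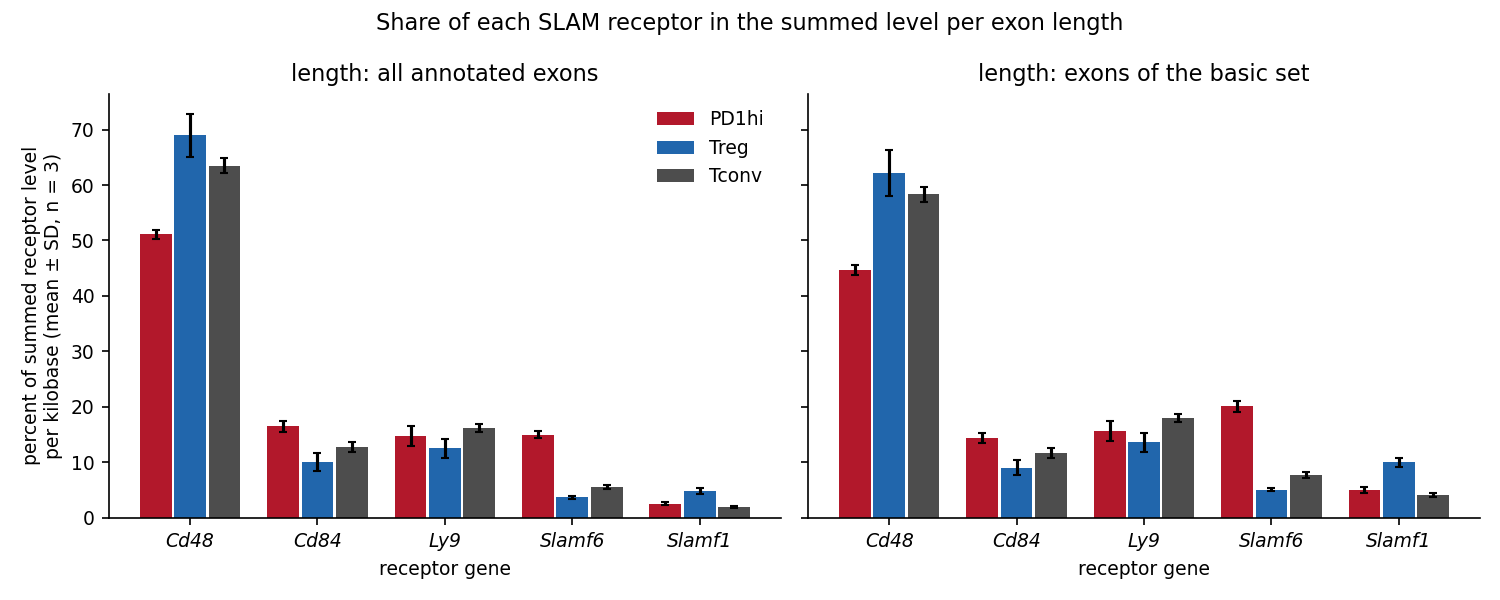
Share of 5 receptors in the summed receptor level per kilobase, in percent (mean ± SD, n = 3 values per population), with lengths from all annotated exons or from the basic set. Slamf6 reaches 15.0% or 20.1% in PD1hi and stays under 8% in Treg and Tconv.

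The cluster on chromosome 1 did not move as a block. Of 11 other table genes, the 5 nearest on each side and 1 within, 9 were tested, and 0 passed limma in any comparison. Over all genes, 26.1% were called in PD1hi against Tconv, 16.5% in PD1hi against Treg and 14.4% in Treg against Tconv. With only 9 genes, a count of 0 says little beside these shares. Their median log2 fold change was -0.12 in PD1hi against Tconv, 0.01 in PD1hi against Treg and -0.06 in Treg against Tconv. The medians over all genes were -0.000378, -0.00877 and 0.00612. Tstd1, Gm15431 and Vangl2 were low, with means of 17.2, 28.3 and 43.7 and wide SEs (0.43, 0.46 and 0.41). Usf1 and Ncstn, on either side, gave -0.28 ± 0.14 and -0.12 ± 0.16 in PD1hi against Tconv. Slamf7, a further receptor of the cluster named here after its values were seen, averaged 373 ± 84.9 in PD1hi, 430.4 ± 8.12 in Treg and 689.4 ± 50.4 in Tconv. It was lower in PD1hi than in Tconv (-0.91 ± 0.18, limma adjusted p = 0.00281). In Treg against Tconv it gave -0.68 (limma adjusted p = 0.0259), a call lost without any 1 of the 6 Treg and Tconv values (limma adjusted p of 0.0667 to 0.0985). Slamf8, known mainly from myeloid cells, averaged 52.3 ± 21.2 in PD1hi, 3.59 ± 2.97 in Treg and 8.33 ± 11.7 in Tconv. It passed in PD1hi against Tconv (3.24 ± 0.87, limma adjusted p = 0.0157), but not without both libraries that stood apart (0.0594). The call was lost in 5 of 18 alternatives, among them all 13 libraries with an estimated correlation (limma adjusted p = 0.0521) and the leaving out of PD1hi of experiment 5 (0.0513), Tconv of experiment 3 (0.0686) or Tconv of experiment 6 (0.0679). Without single values that log2 fold change ran from 2.56 to 4.30. In PD1hi against Treg Slamf8 gave 3.63 ± 0.87 (limma adjusted p = 0.0128). That call was lost in 2 of 18 alternatives, without Treg of experiment 6 (limma adjusted p = 0.0506) and without both libraries that stood apart (0.0724). Slamf9 and Sh2d1b1 were below the minimum level.

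**Figure D4:**
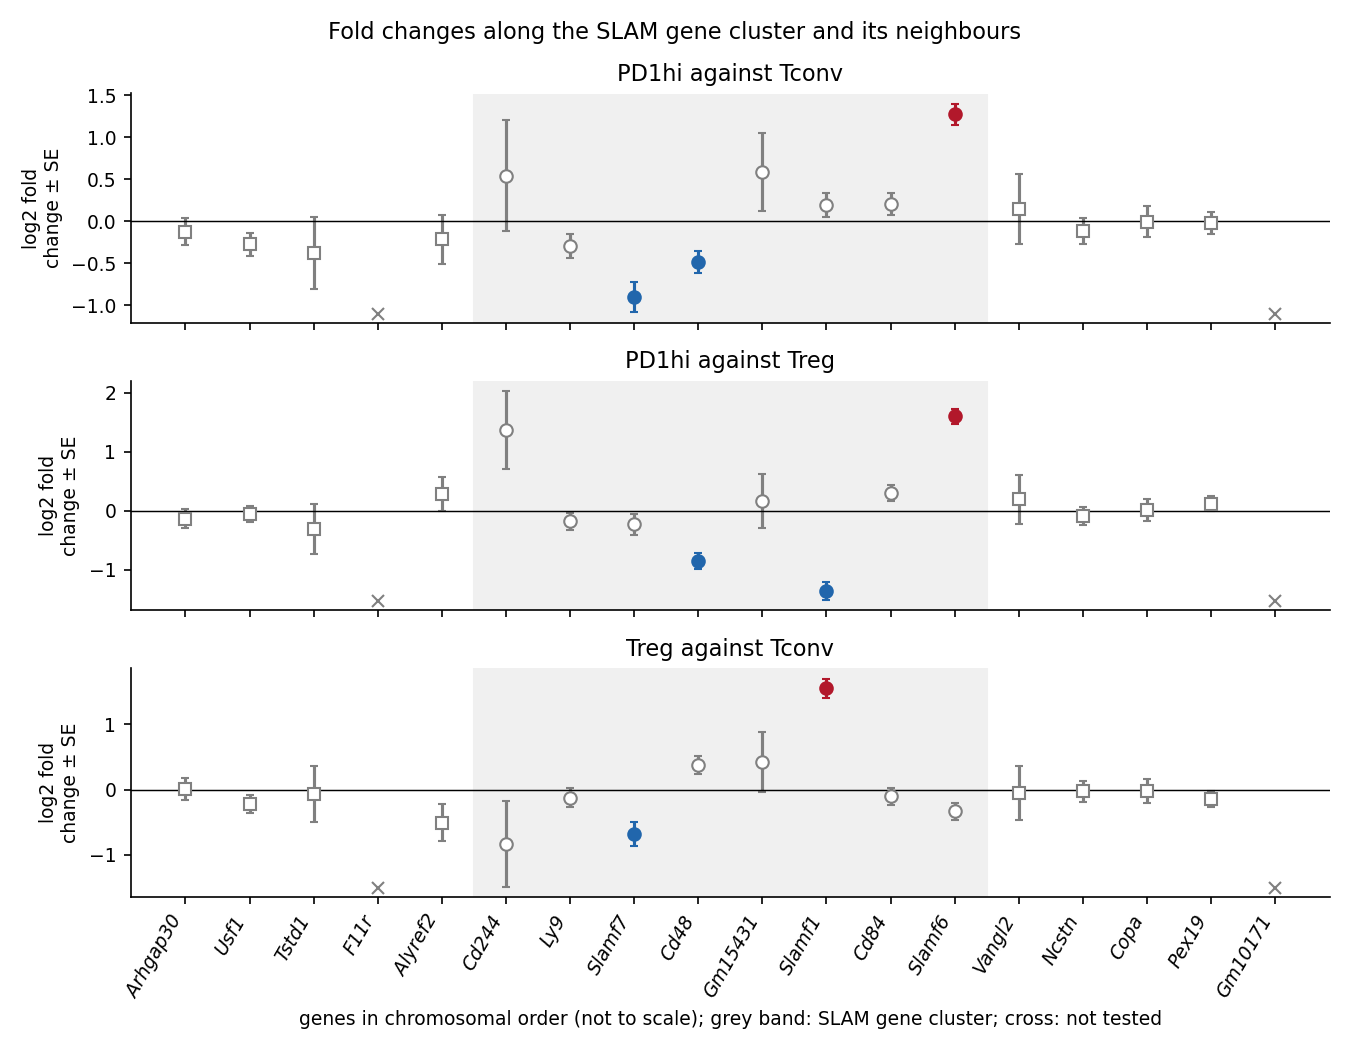
Log2 fold change ± SE along the SLAM gene cluster (grey band) and its neighbours, in chromosomal order and not to scale. Filled points passed limma, squares are genes outside the cluster, and crosses mark genes below the minimum level. Slamf6 at 1.27 and Cd48 at -0.48 are both inside the cluster in PD1hi against Tconv, and no neighbour is filled.

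A list of 21 signalling partners of the receptors, SAP and Fyn was all tested. In PD1hi against Tconv 6 were higher and 2 lower, where 26.1% of all genes were called. In PD1hi against Treg 6 were higher and 4 lower, where 16.5% were called, and in Treg against Tconv 2 were higher and 5 lower, where 14.4% were called. The median log2 fold change was 0.07, 0.15 and -0.01. Ptpn11, which encodes the phosphatase SHP-2, averaged 4970 ± 332.5 in PD1hi, 443.1 ± 38.4 in Treg and 640.4 ± 22.8 in Tconv. Its log2 fold change was 2.95 ± 0.13 in PD1hi against Tconv (limma adjusted p = 7.81e-08) and 3.49 ± 0.13 in PD1hi against Treg (1.15e-08). Ptpn6, which encodes SHP-1, gave 0.07 ± 0.13 in PD1hi against Tconv (limma adjusted p = 0.763) and 0.89 ± 0.13 in PD1hi against Treg (0.000541). Malt1 and Nfkb1, of the NF-kB pathway downstream of antigen receptors, were higher in PD1hi than in Tconv by 1.94 ± 0.18 and 1.52 ± 0.22 on the log2 scale (limma adjusted p = 9.96e-06 and 0.000281). Dok1, an adaptor that restrains kinase signals, was higher in Treg than in Tconv by 1.33 ± 0.14 and lower in PD1hi than in Treg at -0.85 ± 0.14 (limma adjusted p = 0.00118). Zbtb16, which encodes the transcription factor PLZF of innate-like T cells, averaged 73.8 ± 34.8 in PD1hi, 18.8 ± 16.8 in Treg and 181.1 ± 67.9 in Tconv.

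**Figure D5:**
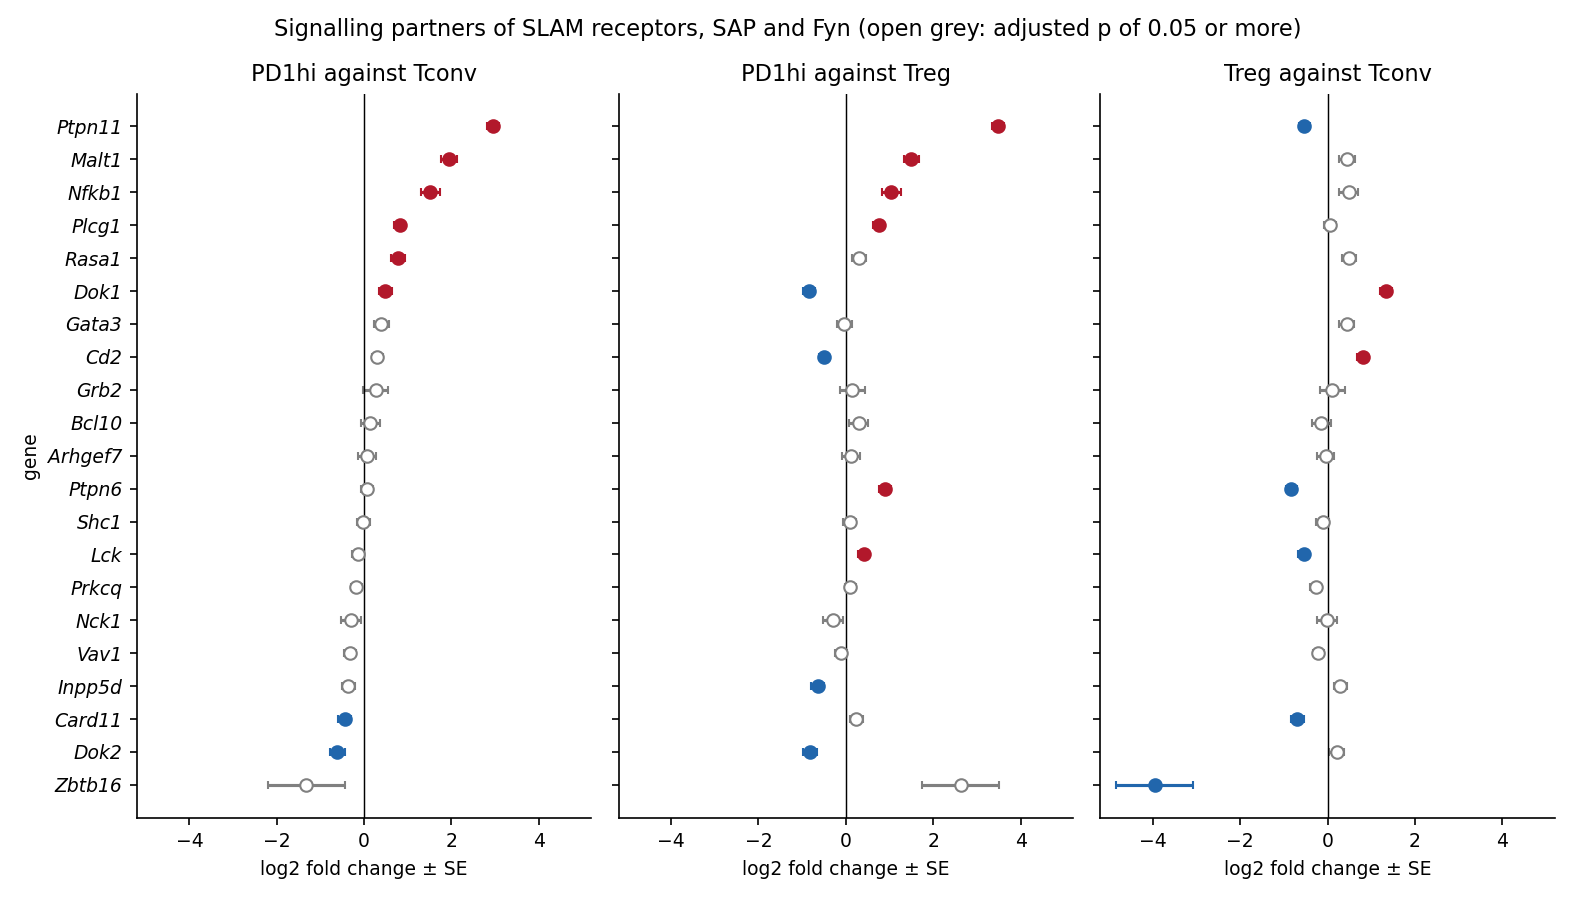
Log2 fold change ± SE of 21 signalling partners in the 3 comparisons (limma, n = 3 values per population), ordered by PD1hi against Tconv. Filled points passed the test, red higher and blue lower, and Ptpn11 is highest at 2.95 in PD1hi against Tconv.

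Of 15 other Src family kinases and regulators of Fyn, 13 were tested. In PD1hi against Tconv 3 were higher and 1 lower, a share near the 26.1% called over all genes. In PD1hi against Treg 2 were higher and 6 lower, where 16.5% of all genes were called, and in Treg against Tconv 6 were higher and 2 lower, where 14.4% were called. Pag1, which encodes a membrane adaptor that brings the inhibitory kinase Csk to Src kinases, averaged 357.9 ± 14.5 in PD1hi, 734.1 ± 40.5 in Treg and 1233 ± 110.5 in Tconv. It was lower in PD1hi than in Tconv (-1.78 ± 0.14, limma adjusted p = 3.67e-06) and than in Treg (-1.03 ± 0.14, limma adjusted p = 0.000299). Ptpn22, a phosphatase that acts on Lck and Fyn, was higher in PD1hi than in Tconv (1.01 ± 0.17, limma adjusted p = 0.00104) and than in Treg (1.23 ± 0.17, limma adjusted p = 0.000366). Lck, the other main Src kinase of T cells, gave -0.14 ± 0.13 in PD1hi against Tconv (limma adjusted p = 0.485). It was higher in PD1hi than in Treg (0.41 ± 0.13), near the threshold (limma adjusted p = 0.0489). In Treg it was lower than in Tconv (-0.55 ± 0.13, limma adjusted p = 0.0128). Lyn, a kinase best known from B cells, averaged 140.6 ± 26.0 in PD1hi, 135.7 ± 62.0 in Treg and 27.9 ± 12.9 in Tconv. Fgr averaged 89.9 ± 10.4, 312.8 ± 34.1 and 96.7 ± 18.2, and Src 10.8 ± 14.3, 84.5 ± 10.1 and 2.25 ± 1.04, in the same order. Unc119, an activator of Src kinases, averaged 132.9 ± 36.0, 241.1 ± 44.9 and 63.3 ± 5.73, and Yes1 6.15 ± 3.57, 26.4 ± 9.29 and 19.3 ± 5.08. The call of Unc119 in PD1hi against Treg (limma adjusted p = 0.049) was lost in 15 of 19 alternatives, among them experiment as a replicate block (0.0548), all 13 libraries with an estimated correlation (0.0974) and the fit without both libraries that stood apart (0.103). That of Yes1 (limma adjusted p = 0.0274) was lost in 5 of 18, among them the fit without both libraries (0.0508).

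Of 6 genes of contact with B cells and germinal centre help, 5 were higher in PD1hi than in Tconv, where 14.2% of all genes were higher, and 5 were higher in PD1hi than in Treg, where 8.16% were. In Treg against Tconv 2 were higher and 3 lower, where 8.73% of all genes were higher and 5.66% lower. Like the other lists, this one was chosen with earlier results of these data known, so these counts are only a description. Bcl6, the master regulator of follicular helper cells, averaged 4036 ± 408.6 in PD1hi, 438.4 ± 107.8 in Treg and 462.8 ± 54.5 in Tconv. Cxcr5, the receptor that guides cells to follicles, averaged 17500 ± 2217 in PD1hi, 4664 ± 604.4 in Treg and 1499 ± 188.7 in Tconv. Il21 averaged 3296 ± 682.7, 1.77 ± 0.93 and 104.4 ± 47.7 in the same order, and Il4 was higher in PD1hi than in Tconv (log2 fold change 2.39 ± 0.53, limma adjusted p = 0.00514). Icos was higher in PD1hi than in Tconv (1.68 ± 0.11, limma adjusted p = 1.13e-06). In PD1hi against Treg it gave -0.34 ± 0.11 (limma adjusted p = 0.0641), and was called lower with all 13 libraries and an estimated correlation (0.0262). Cd40lg was higher in PD1hi than in Treg (3.04 ± 0.15, limma adjusted p = 1.09e-07) and gave 0.31 ± 0.15 in PD1hi against Tconv (limma adjusted p = 0.165).

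For each member, the 3 genes with the most similar pattern were taken by Pearson's r over the 9 values, as a description over points that share libraries. They were Bcl2a1d, Ralyl and Gpm6b for Slamf6 (0.9929, 0.9918 and 0.9895) and Litaf, Cxcr5 and Ndrg4 for Sh2d1a (0.9935, 0.9923 and 0.9911). For Fyn they were Jak2, Zfp703 and Fkbp5 (0.9973, 0.9879 and 0.9838), and for Slamf1 Swap70, Cxcl2 and Gucy2e (0.9902, 0.9896 and 0.9877). Cd48 was nearest to Cyb5, Tmem64 and Ndrg1 (0.9909, 0.9796 and 0.9755), and Ly9 to Zfp110, Ipo11 and Ncoa4 (0.9844, 0.9842 and 0.9831). The values were lower for Cd84, with Tespa1, Gm11491 and Dcaf11 (0.9692, 0.9549 and 0.9095), and for Cd244, with Immp1l, Usmg5 and Pom121 (0.9533, 0.9533 and 0.9384).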

How the data were processed

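RNA was sequenced from 13 libraries of sorted mouse splenic CD4 T cells. Trizol was used for extraction, per the labels' protocols, and the RNA was depleted of ribosomal RNA with a low-input RiboMinus kit and turned into Ion Torrent libraries (Ion Total RNA-seq kit). Per the submitters' processing notes, the tools included HTSeq 0.5.4, Picard and limma, with mm9, hg19 and GRCh37 listed as builds. Not given in the sources used here are the aligner, the strand setting and what each build was used for.

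A table of 18649 genes was deposited by the authors, in the unit signal, described as scaled counts. After subtraction of an added 1, each deposited signal value divided by a constant for its library gave whole reads (to within 0.001 reads). Depth was 15971126 to 24216463 reads. Libraries titled replicate were compared by chi-square per degree of freedom (7.768, 8.693, 9.047 and 73.5 for the 4 pairs, against 15.43 to 92.73 for pairs of different experiments) and averaged with their partner, which gave 9 values. Genes with a mean of at least 10 were tested 2-sided on log2(scaled count + 1) with limma 3.58.1 (R 4.3.3, trended variance, 1 estimate shared by the populations). Calls needed a Benjamini-Hochberg adjusted p under 0.05. Folds on this scale are too small for low genes. The fit was tested on simulated data.

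Experiment numbers are taken from the titles, and the labels do not say what samples of the same experiment shared. Same-experiment deviations correlated at 0.243, 0.218 and 0.298 for Treg with Tconv, 0.197, 0.125 and 0.0187 for PD1hi with Tconv, and 0.092, 0.169 and -0.07 for PD1hi with Treg. Alternatives were another pseudocount, other minimum levels, 2 other scalings, the replicate block, all 13 libraries as samples, fits of 2 populations, and leaving out values or libraries. Exon lengths and overlaps came from GENCODE vM21 and gene order and promoters from RefSeq (both GRCm38), not the mm9 build of the notes. A synonym was used as a match only where it is not the symbol of another gene. From each list, genes past the test in at least 1 comparison with an absolute log2 fold change above 1 were named, at most 8, and further genes are examples chosen after their values were seen. The members and lists were chosen with earlier results of these data known.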

Additional observations from a re-analysis of the deposited data

Results flagged for a closer look

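In groups of 5 libraries, a library was marked where its gap to the nearest other library was an unusually large part of the range of the group. Of 16 groups examined (8 genes in Treg and in Tconv), 2 were marked. Chance marks about 1 in 20 where libraries are independent. Libraries titled replicate may not be, and the 8 genes share the same libraries, so that rate may not hold here. Fyn in Treg had its highest library at 3960, with a gap of 0.819 of the range. Ly9 in Treg had its lowest library at 3054, with a gap of 0.72 of the range. Both values are from the second Treg library of experiment 3, which also stood apart on the third principal component (-50.67, against 6.302 to 16.53 in the other Treg libraries). In that library the sums of the myeloid, dendritic and platelet markers (990.3) and of the CD8 T and NK cell markers (1378) were the highest of Treg, and those of the CD4 T cell markers (113400) and of Foxp3 with Pdcd1 (14620) were the lowest. Their part in the values of Fyn and Ly9 was not tested.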

How the results depend on the processing

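Over 453 member values under alternatives, 439 kept direction and side of the threshold, 4 lost the call, 7 gained one and 3 changed sign. The last are Fyn in Treg against Tconv, called in no fit, which was -0.12 without the second Treg library of experiment 3 and without both libraries that stood apart, and -0.11 to 0.19 when single values were left out. The lost calls are all Cd48 in PD1hi against Tconv, so the number of members called lower there was 0 with libraries scaled to equal totals and 0 to 1 when single values were left out. In Treg against Tconv, 4 members were called and 1 of them lower with all 13 libraries and an estimated within-pair correlation, where Slamf6 (-0.32, limma adjusted p = 0.0459) and Cd48 (0.39, 0.0222) passed. Cd48 passed there also with equal totals (0.035), without PD1hi of experiment 6 (0.0489) and without both libraries that stood apart (0.0429). The replicate block gave an adjusted p of 0.0412 for it (limma), changed no other member call and called 3974, 2579 and 2204 genes in the 3 comparisons, against 3700, 2346 and 2039. Genes called lower in Treg against Tconv were 494 to 1123 when single values were left out, against 802. Equal totals called 2457 genes higher and 1299 lower in PD1hi against Tconv, against 2012 and 1688. The leaving out of both libraries that stood apart was chosen after seeing the data. Over 1131 values of genes from the lists, 1067 kept direction and call, 44 lost and 11 gained a call, and 9 changed sign, none of them called with either sign. Bcl6 in Treg against Tconv was 0.019 without the second Treg library of experiment 3 and without both libraries, and -0.24 to 0.11 when single values were left out. Fgr in PD1hi against Tconv was 0.046 with equal totals, 0.000566 without both libraries and -0.23 to 0.038 when single values were left out. In such fits Lyn in PD1hi against Treg ran from -0.28 to 0.45, and Slamf8 in Treg against Tconv from -1.06 to 0.67. The cause was not tested. A planned count test on reads was not run. Cd244 has no value at a minimum mean of 50, and its depth limits what could be detected.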
